A study of Caenorhabditis elegans with 2 samples.

Results

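The genes described are those of Caenorhabditis elegans for antioxidant and glutathione enzymes. They were chosen by name from the WBcel235 annotation as every protein-coding gene of the families gst, gsto, sod, ctl, prdx, trx, trxr, gpx, glrx and gcs, together with gsr-1 and gss-1. This gave 81 genes of 19973 protein-coding genes, of which 44 were gst genes and 3 gsto genes. DVE-1, a SATB-type protein with homeodomains, was mapped by chromatin immunoprecipitation with an anti-GFP antibody and sequencing of sonicated chromatin from whole animals. The only group was L4 hermaphrodites of strain OP398, genotype unc-119(tm4063) III; wgIs398, with 2 biological replicates from separate biosamples, and the age is labelled unknown. Both replicates carried the unc-119 allele and the same transgene, a single stable line in which DVE-1 has GFP and FLAG at its C-terminus, so the protein measured is the tagged fusion in a mixture of all tissues. Neither the promoter of the transgene nor the state of the native dve-1 locus is stated in these sources. There was no untagged or stressed group among the samples analysed, and both replicates were compared with 1 shared control alignment, which was not analysed here.

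Reactive oxygen and electrophiles are removed by enzymes that work in relay. Superoxide dismutases turn superoxide into hydrogen peroxide, which catalases, peroxiredoxins and glutathione peroxidases reduce. Thioredoxins, glutaredoxins and their reductases carry electrons from NADPH, and glutathione S-transferases join glutathione to reactive compounds so that they can be exported. In C. elegans many of these genes are known targets of the bZIP factor SKN-1, with gst-4 and gcs-1 in common use as reporters, while sod-3 is a known target of the forkhead factor DAF-16. DVE-1 itself is known from the intestine, where it acts in the response to unfolded proteins of mitochondria.

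A gene was counted as marked when the summit of a peak in the optimal ce11 list lay between 1000 bp before and 200 bp past any of its annotated 5' ends. The relaxed lists hold 30000 regions each for replicate 1, replicate 2 and the pooled replicates. The optimal list holds 7262 peaks that the authors filtered on reproducibility, and equals the strongest 7262 regions of the pooled list. A peak in it need not have a region in each replicate. Each region has a signal that the authors' peak caller wrote, and its scale differs from list to list. For comparison between replicates the signal was divided by that replicate's median over the 6828 optimal peaks found in both replicates. This median, called the median optimal peak of a replicate, was 29.5 in replicate 1 and 38.2 in replicate 2. The quotient is called relative signal here. The lists give no read counts, so library depth cannot be stated and the intervals given cover only counting over genes.

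Of the 81 genes, 25 were marked (30.9%, exact binomial 95% interval 21.1 to 42.1%), while 21.7% of all protein-coding genes were marked. The interval includes the background share near its lower end. Among gst and gsto genes 17 of 47 were marked (36.2%, interval 22.7 to 51.5%), and among the other families 8 of 34 (23.5%, interval 10.7 to 41.2%), and these intervals overlap. Of the gst genes 15 of 44 were marked, of the gsto genes 2 of 3 and of the gpx genes 3 of 8. The families sod, trx and glrx had 1 marked gene of 5 each, and both gss-1 and gsr-1 were marked. No gene of ctl (3 genes), prdx (3 genes), trxr (2 genes) or gcs (1 gene) was marked. A weaker region of the pooled relaxed list, below the optimal list, lay in the window of 20 further genes, so that 45 of 81 (55.6%) had a pooled region of any strength, against 38.7% of all genes. The remaining 36 had none. These lists of genes were chosen with earlier results known and genes in tandem copies or with a common peak are not independent, so the shares are given without a test.

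**Figure D1:**
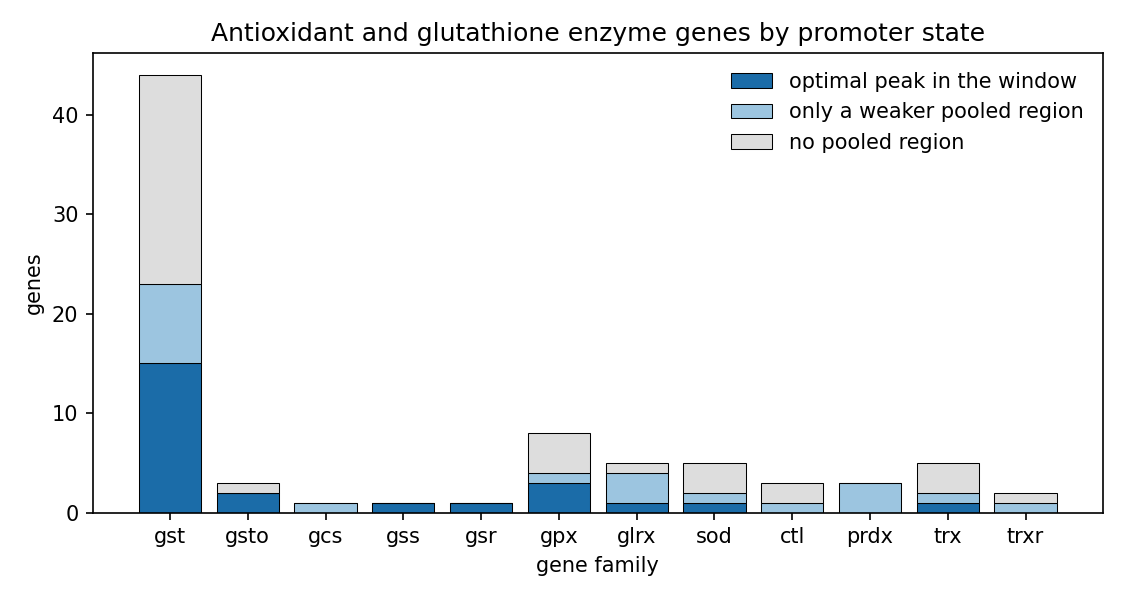
Number of genes per family (bars, vertical axis in genes) whose promoter window held an optimal peak (dark blue), only a weaker region of the pooled list (light blue) or no pooled region (grey). Of the 44 gst genes 15 had an optimal peak, whereas all 3 prdx genes and gcs-1 had only a weaker region.

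The strongest peaks belonged to glutathione S-transferase genes. The first was at gst-42 (chromosome X, 11727854 to 11728071), the gene for the zeta-class enzyme, which takes part in tyrosine breakdown. Its pooled signal was 173, rank 416 of the optimal list, with a signal of 52.6 in replicate 1 and 120 in replicate 2. Its relative signal was 2.47 ± 0.97 (SD, n = 2), with the largest SD among the marked genes. The summit lay 27 bp before gst-42 and 188 bp before its neighbour D1053.2. Next came gst-27 (chromosome II, 15165872 to 15166235), at a pooled signal of 150, 64.5 in replicate 1 and 86.3 in replicate 2. Both replicates gave gst-27 nearly the same relative signal, 2.22 ± 0.05 (SD, n = 2).

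Then followed gst-9 (chromosome II, 4891411 to 4891583), gst-7 (chromosome II, 4881892 to 4882018) and gst-1 (chromosome III, 9058963 to 9059326). For gst-9 the pooled signal was 127, with 49.3 in replicate 1 and 80.5 in replicate 2, and a relative signal of 1.89 ± 0.31 (SD, n = 2). For gst-7 it was 119, with 54.7 in replicate 1 and 64.2 in replicate 2, and a relative signal of 1.77 ± 0.12 (SD, n = 2). The gene gst-1 encodes a pi-class enzyme and is known for protecting dopamine neurons. Its main peak had a pooled signal of 110, with 53.9 in replicate 1 and 59.4 in replicate 2, a relative signal of 1.69 ± 0.19 (SD, n = 2) and a summit 186 bp before the 5' end. A weaker peak (pooled signal 36.9) had its summit 17 bp inside gst-1. The order among gst-9, gst-7 and gst-1 rests on differences smaller than the SD of gst-9 and is not resolved by 2 replicates.

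Sequence around the summit is shown for the 6 strongest peaks of these genes with no annotated exon in the 50 bp to each side, because they carry the values above and those of gss-1, gsr-1 and gst-29 below. Each line is the RefSeq genome sequence of WBcel235 (ce11), read 5' to 3' on the strand of the gene, with the summit at its centre. Capitals mark matches to TGTCAT, the core letters of SKN-1 sites, on either strand (the reverse complement reads ATGACA). The positions are chrII:4891423-4891523 (plus strand) for gst-9, chrII:4881915-4882015 (plus) for gst-7, chrIII:9059095-9059195 (plus) for gst-1, chrII:9416787-9416887 (minus) for gss-1, chrIII:3650456-3650556 (plus) for the outer peak of gsr-1 and chrII:15170012-15170112 (minus) for gst-29.
gst-9: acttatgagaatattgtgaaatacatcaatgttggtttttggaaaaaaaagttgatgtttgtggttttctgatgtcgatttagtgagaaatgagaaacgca
gst-7: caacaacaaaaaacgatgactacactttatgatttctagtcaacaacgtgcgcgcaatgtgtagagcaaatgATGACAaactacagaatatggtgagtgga
gst-1: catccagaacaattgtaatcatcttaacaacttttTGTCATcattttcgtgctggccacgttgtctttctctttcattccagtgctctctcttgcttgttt
gss-1: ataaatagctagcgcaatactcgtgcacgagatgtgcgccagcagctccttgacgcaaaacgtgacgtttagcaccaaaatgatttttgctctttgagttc
gsr-1 outer peak: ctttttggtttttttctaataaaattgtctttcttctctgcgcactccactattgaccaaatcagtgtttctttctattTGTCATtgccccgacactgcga
gst-29: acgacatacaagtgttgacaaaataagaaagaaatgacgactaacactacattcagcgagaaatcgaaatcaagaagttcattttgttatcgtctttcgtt
Of these 6 stretches, those of gst-7, gst-1 and gsr-1 hold TGTCAT once each, and those of gst-9, gss-1 and gst-29 do not hold it. A match describes the letters and does not show a site that is used.

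**Figure D2:**
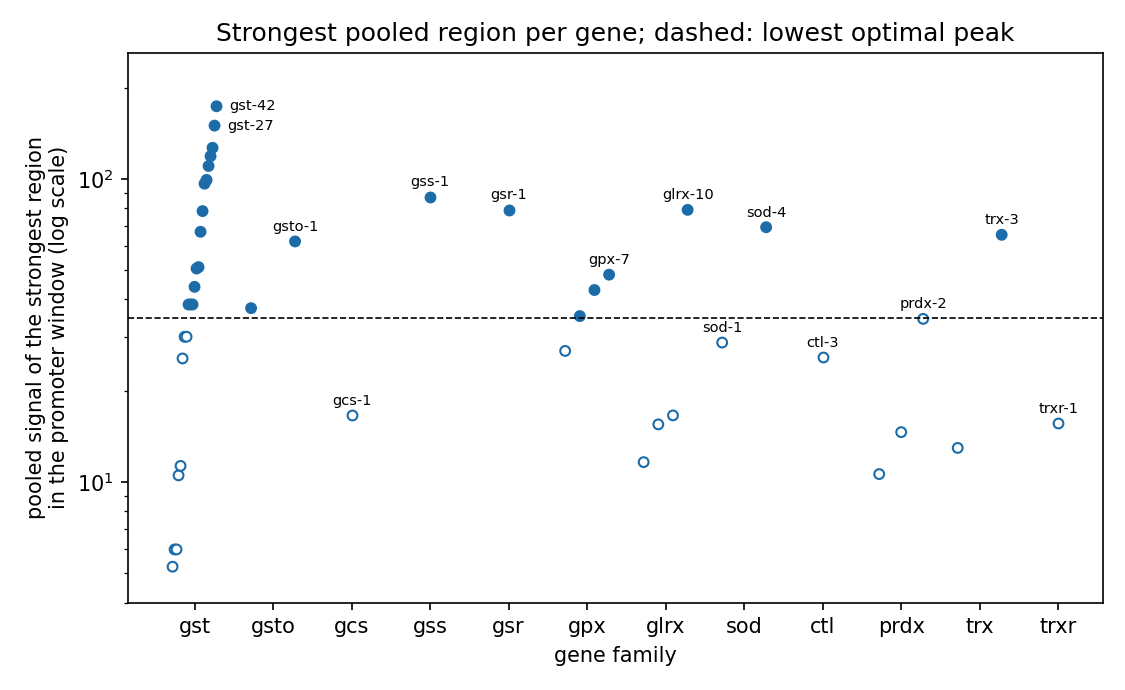
Pooled signal (log scale) of the strongest pooled region in the promoter window of each gene that had one, by family. Filled points are in the optimal list, open points are weaker regions and the dashed line is the lowest optimal peak (34.7). The gst genes run from the weakest regions to gst-42 at 173, and no gene of another family is above gss-1 at 87.4.

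Over the 25 marked genes the pooled signal of the strongest peak had a median of 66.9 and ran from 35.2 to 173. The median over all 4327 marked genes was 71.4, and that over all optimal peaks 64.7. Marked gst and gsto genes (median 66.9) and the marked genes of other families (median 67.3, range 35.2 to 87.4) had similar medians, but the 7 genes with the highest signals were all gst genes. They were the 5 above with gst-20 at 99.1 (chromosome II, 13609647 to 13610010) and gst-13 at 96.4 (chromosome II, 9231373 to 9231480), both with a summit within 15 bp of the 5' end. Relative signal was 1.26 in replicate 1 and 1.69 in replicate 2 at gst-20, and 1.27 and 1.55 at gst-13. Each of these 7 genes was above the median optimal peak in both replicates.

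The summits lay close to the gene starts. The median distance of the strongest summit was 124 bp before the 5' end (quartiles 40 and 254 bp). For all marked genes it was 222 bp (quartiles 106 and 441 bp). The 2 farthest were gst-5, 764 bp, and gsto-2, 751 bp. Of the 27 distinct peaks, 21 had an intergenic summit, 3 an intronic one, 2 one in an exon of a noncoding transcript or untranslated part, and 1 one in a coding exon, that of gpx-7. These places were not counted over all optimal peaks, so they have no background share. Some peaks also had a summit near a neighbour, and 6 lay in the window of a gene outside these families. At gss-1 the summit was nearer to chch-3 (176 bp) than to gss-1 (406 bp), and at gst-43 nearer to copa-1, the gene for the coatomer alpha subunit (211 bp against 254 bp). At gst-42, gst-36, the pair gst-2 and gst-4, and the inner peak of gsr-1 an enzyme gene was the nearest, with D1053.2, R07B1.5, dhs-12 and madf-8 as the other genes.

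Genes for making and recycling glutathione differed among themselves. For gss-1, which encodes glutathione synthetase, the second enzyme of synthesis, the peak (chromosome II, 9416655 to 9417018) had a pooled signal of 87.4, with 38.5 in replicate 1 and 45.8 in replicate 2. Its relative signal was 1.25 ± 0.07 (SD, n = 2), so both replicates placed it above the median optimal peak. The gene gsr-1 encodes glutathione reductase and is known to give rise to a cytosolic and a mitochondrial form from different starts. It had 3 annotated 5' ends and 2 peaks. The outer peak (chromosome III, 3650445 to 3650536) had a summit in an intron of the neighbour madf-8, 401 bp before the outermost 5' end, and a pooled signal of 79.1, with 29.7 in replicate 1 and 54.1 in replicate 2. The inner peak (chromosome III, 3650924 to 3651287) had a summit in an intron of gsr-1, 79 bp past one 5' end and 223 bp before the innermost one, and a pooled signal of 44.7, with 14.2 in replicate 1 and 33.4 in replicate 2. The inner peak was the weaker one in both replicates, with relative signals of 0.48 and 0.88 against 1.00 and 1.42.

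By contrast gcs-1, which encodes the catalytic subunit of glutamate-cysteine ligase, the rate-limiting first enzyme of synthesis, had no optimal peak. Its window held a pooled region of rank 13468 with a signal of 16.6. The strongest region in the window, not matched by summit, had 5.77 in replicate 1 and 17.5 in replicate 2. Both values are below the median optimal peak of their replicate, and neither region was among the 7262 strongest of its list.

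The reporter gene gst-4 and its neighbour gst-2 had 1 weak peak with its summit between them. These genes are transcribed away from each other. The peak (chromosome IV, 10142003 to 10142366) had its summit 40 bp before gst-4, 124 bp before gst-2 and 270 bp before the short-chain dehydrogenase gene dhs-12. The pooled signal was 38.5, rank 6618, with 19.8 in replicate 1 and 21.5 in replicate 2. Its relative signal, 0.62 ± 0.08 (SD, n = 2), was below the median optimal peak in both replicates, and about as high as at gst-28. The whole gap between both genes is printed because it holds the summit and is the control region of a much used reporter. The stretch at the weak peak of gst-8 is printed with it. Capitals mark matches to TGTCAT, and in the gap also the TGATAAG that matches both TGATAA and the reverse complement of CTTATCA. The positions in WBcel235 (ce11) are chrIV:10142062-10142224 (plus strand, 163 bp) for the gap and chrII:4883489-4883589 (plus) for gst-8.
gst-2 to gst-4: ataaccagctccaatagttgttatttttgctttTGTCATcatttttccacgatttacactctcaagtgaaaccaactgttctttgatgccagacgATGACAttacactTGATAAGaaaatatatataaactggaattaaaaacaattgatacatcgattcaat
gst-8: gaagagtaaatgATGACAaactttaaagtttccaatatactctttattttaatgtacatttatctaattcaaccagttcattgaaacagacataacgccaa
The gap holds TGTCAT in both orientations, and the stretch at gst-8 holds it once.

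The superoxide dismutase genes were marked in 1 case of 5. That gene was sod-4, which encodes the extracellular copper and zinc enzyme. Its stronger peak (chromosome III, 9500219 to 9500582) had a summit 26 bp before the outermost 5' end and a pooled signal of 69.2, with 24.9 in replicate 1 and 40.2 in replicate 2. Its second peak, 227 bp before, had a pooled signal of 35.2 and the lowest mean relative signal of the 26 enzyme gene peaks found in both replicates, 0.44 in replicate 1 and 0.18 in replicate 2. For sod-1, the cytosolic copper and zinc enzyme, the strongest pooled region in the window had only rank 8516 (signal 28.8). Each replicate alone had a region in this window among its 7262 strongest, with 25.8 in replicate 1 and 22.2 in replicate 2. The summits of these regions were not matched between the lists. No pooled region was in the windows of sod-2 and sod-3, the mitochondrial manganese enzymes, or of sod-5, a second cytosolic enzyme.

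Of 6 genes for mitochondrial enzymes (sod-2, sod-3, prdx-3, trx-2, trxr-2, glrx-5) 0 had an optimal peak, which with an exact interval allows a share of up to 45.9%. Of the 6, prdx-3 had a weaker pooled region (rank 14884, signal 14.6) and so did glrx-5 (rank 17848, signal 11.6), and the other 4 had none. The marked gene gsr-1, which gives both a cytosolic and a mitochondrial form, was counted in neither set. For 11 counterparts in the cytosol, the peroxisome or outside the cell (sod-1, sod-4, sod-5, prdx-2, prdx-6, trx-1, trxr-1, glrx-3, ctl-1, ctl-2, ctl-3) the count was 1, sod-4, with a weaker region at 6 more. In the strongest regions of either replicate alone the counterparts numbered 3 of 11 (27.3%), with sod-1 and prdx-2 added, and the mitochondrial enzymes 0 of 6. The intervals of both sets hold the background of 21.7%, and the sets are too small to show a difference between compartments. The upstream sequence of sod-3 is shown beside these counts as a promoter without any pooled region (WBcel235, chrX:17092553-17092752, plus strand, the 200 bp before the gene). Capitals mark TGTTTAC, the reverse complement of GTAAACA, which is known as a DAF-16 site.
sod-3 upstream: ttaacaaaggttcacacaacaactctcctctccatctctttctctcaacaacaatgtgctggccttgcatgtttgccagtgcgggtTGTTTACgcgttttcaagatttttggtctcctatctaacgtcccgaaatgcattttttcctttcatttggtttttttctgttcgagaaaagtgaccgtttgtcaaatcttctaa
The match of these letters does not show whether DAF-16 or DVE-1 was present there.

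Among the peroxide-reducing genes, gpx-7, gpx-1 and gpx-5 had optimal peaks near the lower end of the list. These genes encode glutathione peroxidases of the kind without selenocysteine. The pooled signal was 48.3 at gpx-7 (18.2 in replicate 1 and 28.7 in replicate 2), 43.0 at gpx-1 (16.2 and 33.3) and 35.2 at gpx-5 (14.9 and 21.5). All 3 were below the median optimal peak in both replicates. For gpx-2 only a weaker pooled region (rank 9014, signal 27.1) was in the window, and gpx-3, gpx-4, gpx-6 and gpx-8 had none. The strongest region in the gpx-2 window, not matched by summit, had 21.0 in replicate 1 and 19.6 in replicate 2. The 3 catalase genes ctl-1, ctl-2 and ctl-3, a tandem set on chromosome II, were unmarked, and only ctl-3 had a pooled region (rank 9366, signal 25.8). At ctl-1 and ctl-2 100% of the 31-base stretches of the window occur more than once in the genome. The read length and the treatment of repeated reads are not stated in these sources, and the part of these copies in the result was not tested.

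The gene prdx-2, for a cytosolic peroxiredoxin, was the nearest miss. Its region had rank 7305 and a pooled signal of 34.5, below the lowest optimal peak at 34.7. The strongest region in the prdx-2 window, not matched by summit, had 21.2 in replicate 1 and 21.9 in replicate 2. Each was among the 7262 strongest of its replicate. Just inside the list were gpx-5 (rank 7177) and the second peak of sod-4 (rank 7186, signal 35.2). A far stronger peak lay at the other end of prdx-2 (chromosome II, 5379658 to 5379802), with a summit 99 bp beyond its 3' end and 297 bp before pkc-3, the gene for atypical protein kinase C. Its pooled signal was 126, with 70.7 in replicate 1 and 70.8 in replicate 2 (relative signal 2.12 ± 0.38, SD, n = 2). The same arrangement was seen at trxr-1, the cytosolic selenoprotein thioredoxin reductase, where a peak of rank 1605 (pooled signal 104) had its summit 93 bp beyond the 3' end and 945 bp before gldi-4. At sod-1 a peak of rank 3488 (pooled signal 66.4) lay 119 bp beyond the 3' end and 352 bp before art-1. Of the 56 unmarked genes, 8 (14.3%) had an optimal summit within the gene or up to 1000 bp beyond its 3' end, outside the promoter window, against 10.2% of all unmarked genes. The summits counted so for gst-6 and gst-24 are those of the peaks already assigned to gst-7 and gst-20.

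Of the thioredoxin and glutaredoxin genes, trx-3 and glrx-10 were marked. The gene trx-3 encodes an intestinal thioredoxin. Its peak (chromosome IV, 4486731 to 4487094) had a pooled signal of 65.4, with 34.5 in replicate 1 and 29.8 in replicate 2, and was one of 8 with the higher relative signal in replicate 1, 1.17 against 0.78. The peak of glrx-10, a glutaredoxin gene on chromosome I, had a pooled signal of 79.0, with 22.2 in replicate 1 and 54.2 in replicate 2. Its relative signal thus ran the other way, 0.75 against 1.42. Of the remaining genes, trx-4 (rank 16374), glrx-3 (13474), glrx-22 (14179), trxr-1 (14085) and prdx-6 (19098) had weak pooled regions, and trx-1, trx-2, trx-5, trxr-2 and glrx-21 had none.

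The omega-class genes gsto-1 and gsto-2 were marked and gsto-3 had no pooled region. At gsto-1 (chromosome III, 7947072 to 7947435) the pooled signal was 62.1, with 23.9 in replicate 1 and 41.6 in replicate 2. At gsto-2 (chromosome III, 8553839 to 8554202) it was 37.4, with 29.1 in replicate 1 but only 9.81 in replicate 2, where the region had rank 14287. The ratio of relative signals, 3.83 in favour of replicate 1, was the farthest from equality among the 26 enzyme gene peaks found in both replicates. The other marked gst genes were gst-29 (pooled signal 78.2), gst-43 (66.9), gst-36 (51.1), gst-5 (50.6), gst-28 (44.0) and gst-8 (38.5). Of these gst-5 was uneven, with 12.5 in replicate 1 and 38.0 in replicate 2, and gst-36 nearly even, with 28.6 and 27.5.

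The peaks were then compared between replicates. Of 27 distinct peaks, 26 had a summit within 100 bp in the relaxed lists of both replicates, the exception being gst-8, which lacked one in replicate 1. Over all optimal peaks this share was 94%. Within the 7262 strongest regions of each replicate, 18 of the 27 peaks were found in both, against 71.6% of all optimal peaks. Replicate 1 had 19 of the 27 there and replicate 2 had 25. In the strongest 7262 regions of each replicate alone, 27 of 81 genes were marked in replicate 1 (33.3%, against 21% of all genes) and 27 in replicate 2 (33.3%, against 21.7%), and 24 in both (29.6%, against 17.7%). Of these 24 genes, 3 (sod-1, prdx-2 and gst-22) had no optimal peak in the window. Relative signal was higher in replicate 2 at 18 of the 26 peaks and in replicate 1 at 8. On the log2 scale, replicate 1 over replicate 2 had a median of -0.33 and an SD of 0.68 across these peaks, against a median of 0.00 and an SD of 0.66 across all optimal peaks. All peaks share the same 2 libraries and are not separate replicates, so this shift was not tested.

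**Figure D3:**
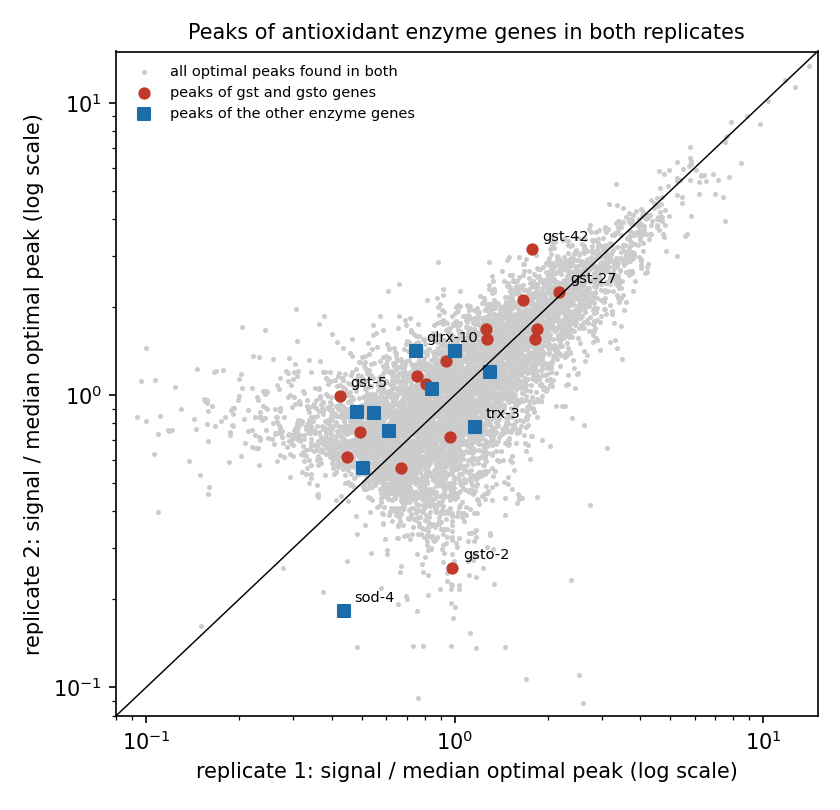
Relative signal in replicate 1 (horizontal) and replicate 2 (vertical), both on log scales, for optimal peaks found in both. Grey points are all such peaks, red circles those of gst and gsto genes, blue squares those of the other enzyme genes, and the line marks equal values. Of the 26 peaks of enzyme genes 18 lie above the line, and gsto-2 and the second peak of sod-4 lie farthest below it.

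The position of marked genes was followed along the tandem arrays of gst genes, defined here as at least 3 genes of 1 family with gaps of at most 10 kb. In the array from gst-6 to gst-9 on chromosome II, 3 of 4 genes were marked (gst-7, gst-8, gst-9). The array from gst-20 to gst-18 on the same chromosome, 9 genes over 22.7 kb, had 1 marked gene, gst-20, at its edge. In the array from gst-26 to gst-35, 9 genes over 21.6 kb, the neighbours gst-27, gst-28 and gst-29 were marked and the other 6 were not. The peak assigned to gst-27 lies in the gap to gst-28, 140 bp beyond the 3' end of the latter. The strongest weaker regions among unmarked gst genes were also in these arrays: gst-26 (rank 8208, signal 30.1), gst-19 (8210, 30.1), gst-16 (9452, 25.5), gst-12 (18251, 11.3) and gst-15 (19253, 10.5). The other unmarked gst genes with a pooled region were gst-17, gst-18 and gst-24, all with signals below 6. Without a pooled region were gst-3, gst-6, gst-10, gst-11, gst-14, gst-21, gst-22, gst-23, gst-25, gst-30, gst-31, gst-32, gst-33, gst-34, gst-35, gst-37, gst-38, gst-39, gst-40, gst-41 and gst-44.

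**Figure D4:**
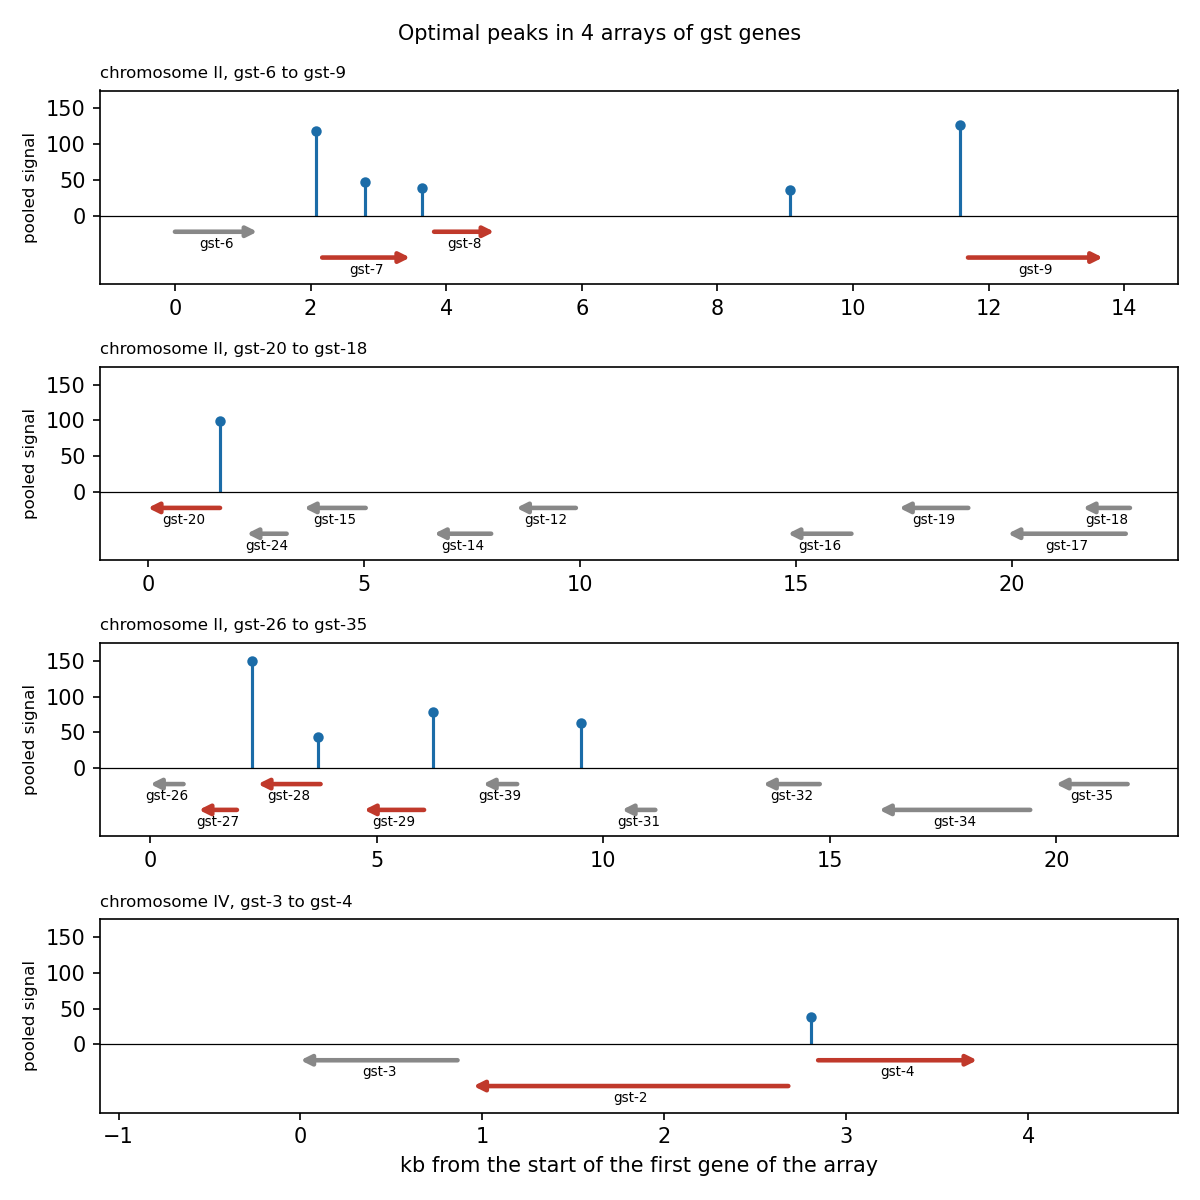
The 4 arrays of gst genes, with distance in kb from the start of the first gene (horizontal) and the pooled signal of each optimal peak in the array (vertical lines with points). Arrows are genes in the direction of transcription, red where marked and grey where not. In the longest array the only peak, at 99.1, is at gst-20.

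Repeated sequence was counted in the same windows. Of the 81 genes, 16 had more than 10% of the window in repeated 31-base stretches, and 14 of these were unmarked (87.5%). Of all protein-coding genes with such windows 89.7% were unmarked. At or under 10%, 23 of 65 enzyme genes were marked (35.4%), against 23.6% of all genes. The share of repeated stretches was 100% at gst-10, 78.7% at gst-39, 48.8% at gpx-4, 47.1% at sod-2 and 47.3% at the marked gst-28, and the median over all 81 genes was 0%. In both sets the marked share was lower where repeats were over 10%, given as counts without a test.

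The counts were also set beside the share of each chromosome. On chromosome V none of 12 genes was marked (9 of them gst genes), which allows a share of up to 26.5%, against 17% of all genes of that chromosome. In the strongest regions of replicate 1 alone 2 of these 12 were marked, gst-22 and gst-38 (16.7%, against 16.9% of all genes there), and in replicate 2 alone 1, gst-22, so the count of 0 depends on the pooled list. On chromosome X 4 of 7 were marked (57.1%, interval 18.4 to 90.1%, against 25%) and on chromosome II 10 of 35 (28.6%, against 19.5%). The intervals of all these counts hold the share of the chromosome.

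Letters of known sites were then counted in the 100 bp to each side of the 27 summits, on both strands, beside the same windows at 3992 optimal promoter summits and at 6992 weaker promoter regions. TGTCAT, from the SKN-1 site, was in 37% of the windows of enzyme genes (10 of 27), in 12.8% of all optimal ones and in 11% of the weaker ones. Of these 10 peaks 5 belonged to gst genes, namely gst-7, gst-1, gst-13, gst-8 and the pair gst-2 and gst-4, and the others to sod-4, glrx-10, gpx-1 and both peaks of gsr-1. With 50 bp to each side the shares were 33.3%, 6.74% and 5.55%. TGATAA, which factors of the GATA family are known to bind, was in 37% of the enzyme windows and in 39.6% of all optimal ones. With 50 bp to each side this became 14.8% (4 of 27) and 26.7%, with 15.9% of the weaker regions, so the near equality holds only for the wider window. CTTATCA, which contains the reverse complement of TGATAA and is known as the DAF-16 associated element, was in 18.5% and 20.6%. TATCAT, another SKN-1 core, was in 14.8% and 17.6%, and GTAAACA in 11.1% and 5.84%. The mean GC content of the windows was 36.5%, 39.1% and 35.4% in the 3 sets, and its part in the shares was not tested.

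The same letters were counted in the 300 bp before the 5' end, a range chosen after the values at summits were seen. TGTCAT was present at 10 of 17 marked gst and gsto genes (58.8%) and at 13 of 30 unmarked ones (43.3%). It was present at 3 of 8 other marked genes and at 1 of 26 other unmarked genes. Over all genes its share was 14.7%, with 14.6% of marked and 14.8% of unmarked genes. TGATAA was at 44% of marked and 26.8% of unmarked enzyme genes (36.6% and 29.1% over all genes). CTTATCA was at 20% and 8.93% (14.4% and 7.85%), and TATCAT at 20% and 14.3% (20.9% and 19.1%). GTAAACA was at 8% and 12.5% (6.24% and 4.67%). The windows of gst-7 and gst-8 shared a stretch of 15 bp that holds TGTCAT, printed here with the match in capitals (WBcel235, chrII:4881982-4881996, plus strand, at gst-7).
gst-7 and gst-8: aaatgATGACAaact
The gst genes are related copies, so their promoters are not independent examples.

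Genes around the enzymes were looked at through 4 lists. Of 12 regulators 6 were marked, of 8 genes for NADPH supply 5, of 13 genes of sulfur amino acid and sulfide metabolism 7, and of 18 other redox and metal defence genes 7, in all 25 of 51 (49%, interval 34.8 to 63.4%) against 21.7% of all genes. The highest signal of these was at wdr-23, whose product delivers SKN-1 to degradation, with a pooled signal of 174, 77.0 in replicate 1 and 99.5 in replicate 2. At skn-1 itself the summit lay 570 bp before a 5' end, with a pooled signal of 114, 44.6 in replicate 1 and 71.5 in replicate 2. Both were thus above the median optimal peak in each replicate, as was daf-16, the forkhead factor gene (pooled signal 88.0, relative signals 1.59 and 1.14). The F-box gene xrep-4 had a pooled signal of 74.9. The unmarked regulators were hsf-1, pmk-1, sek-1, gsk-3, brap-2 and mdt-15.

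For NADPH supply, tkt-1 (transketolase, pooled signal 66.4), idh-1 (isocitrate dehydrogenase, 61.2), nnt-1 (transhydrogenase, 49.9) and tald-1 (transaldolase, 36.8) had the strongest peaks. In sulfur metabolism they were at cbs-1 (cystathionine beta-synthase, 99.2), cth-1 (cystathionine gamma-lyase, 81.4), cysl-2 (cyanoalanine synthase, 78.7) and sams-1 (S-adenosylmethionine synthase, 68.0). Among the other defence genes they were at mrp-5, an ABC transporter gene (119), msra-1, for methionine sulfoxide reductase (105), gstk-1, for a kappa-class glutathione transferase outside the families above (72.3), and sesn-1, for sestrin (59.5). Unmarked were gspd-1, men-1 and T25B9.9 for NADPH supply, and cbs-2, cysl-1, cysl-3, mpst-1, metr-1 and ahcy-1 in sulfur metabolism. Among the other defence genes mtl-2, ftn-1, ftn-2, glod-4, txl-1, bli-3, doxa-1, skpo-1, pxn-1, pxn-2 and mrp-1 were unmarked. The median pooled signal of the marked genes of the 4 lists was 66.4, close to the 66.9 of the enzyme genes.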

How the data were processed

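The authors deposited narrowPeak lists without a header. The file text names a relaxed list for each replicate and for the pooled replicates, and an optimal list filtered on reproducibility between replicates. The unit used is the signal in the seventh column of the deposited lists, which the authors' peak caller wrote from each alignment and a shared control. Neither the aligner nor the peak caller nor the reproducibility threshold is stated in these sources. When compared, the optimal ce11 list equalled the top 7262 of the pooled list by signal. The ce10 lists were not used. The sequence at the inner peak of gsr-1 is not reported here. No read counts are given, so depth is unknown.

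Summits were placed against 29314 annotated 5' ends of the Ensembl release 115 annotation (WBcel235, the ce11 sequence). A replicate was counted as having a peak when its relaxed list had a summit within 100 bp. A window's repeated share is the share of its 31-base stretches found more than once in the genome, counting both strands. Intervals are exact binomial (Clopper-Pearson) at 95%. No test was run, since there is 1 group with 2 replicates and the genes and lists were chosen with earlier results of these data known. Every marked gene, every gene of a family under 10 members, the 5 unmarked gst genes with the strongest pooled region and up to 4 marked genes per neighbouring list were named by rule. The unmarked genes of the neighbouring lists are named as well. The peaks on the 3' side, the repeated stretches, the arrays, the 300 bp motif count and gst-22 were added after values were seen. The alternatives changed the set of peaks, each replicate alone, the window, the assignment of summits, the 5' ends, the matching distance, the scale of the signal and the motif flanks. The assignment of summits to genes was tested on simulated data with planted summits. The tools were Python 3.11.15 (numpy 2.4.6, pandas 2.3.3, scipy 1.17.1, matplotlib 3.10.9).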

Additional observations from a re-analysis of the deposited data

How the results depend on the processing

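The main counts, shares and medians had 46 alternatives. Of these, 41 stayed within 1.5 times, or within the error, of the reported value, and 5 moved. A change of direction was not scored. With only peaks above the median signal of the optimal list, 14 of the 81 genes were marked, and the share was 19.1% for gst and gsto genes and 27.5% for the neighbouring lists, while 12.4% of all genes were marked. A window of 2000 bp upstream raised the neighbouring lists to 66.7% and all genes to 26.6%. As a percentile within each relaxed list the median of the named genes was 86.7, a change of scale from 0.95. With either replicate left out 27 genes were marked. With a summit given to the nearest 5' end only, 22 were marked, without gss-1, gst-2 and gst-43. In each of the 7 settings 0 of 6 mitochondrial forms were marked. Of 81 alternatives for single genes, lists and motifs 75 stayed. Those for single genes could not move, because each of 2 values always lies within their SD of their mean. The median signals without 1 replicate were judged by the SD of the same 2 replicates, so they too had little room to move. A fall from 26 to 18 of the 27 peaks found in both replicates, with only the strongest regions of each, was within 1.5 times. Of the 28 alternatives for the neighbouring lists 5 moved. Among those that moved was NADPH supply, which fell from 5 to 1 gene with the stronger peaks and to 3 without replicate 2. TGATAA also moved, falling to 14.8% with 50 bp to each side (26.7% of all optimal promoter summits). No paired analysis was possible because there is 1 group. With 2 replicates, peaks near the lower end of the list are the least certain.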

Other observations

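At gst-22 both replicates had a region in the promoter window that the pooled list lacked. The region of replicate 1 (chromosome V, 16232191 to 16232560) had a signal of 34.6 and rank 2820, and that of replicate 2 (16232192 to 16232551) a signal of 25.2 and rank 6033. Their summits were 4 bp apart and 94 bp before the gene. Of 5190 pairs of strong regions with summits within 100 bp in both replicates, 53 (1.02%) had no pooled summit within 500 bp. At gst-38, replicate 1 alone had a region among its 7262 strongest (rank 3280, signal 31.7), and the pooled list had none in the window. An optimal peak of rank 4166 lay inside gpx-6, a glutathione peroxidase gene, 208 bp before its 3' end, with a pooled signal of 58.2, 27.1 in replicate 1 and 30.4 in replicate 2. Downstream of gst-1, 264 bp beyond its 3' end, lay another optimal peak with a pooled signal of 93.4, 34.5 in replicate 1 and 58.0 in replicate 2, in no promoter window.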
